A study of Mus musculus with 14 samples.

Results

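CD4+ classical dendritic cells (cDC) of the mouse spleen were set against neutrophils of the bone marrow, 2 arrays for each, which are 4 of the 14 single-colour oligonucleotide arrays of a study of wild-type and IRF8-deficient blood cell progenitors, dendritic cells and neutrophils. The 4 arrays were chosen by their labelled group alone, and the 39429 probes that both array designs hold were compared. Both groups came from C57BL/6 mice of wildtype genotype, and the labels name no treatment; sex and age are not given in the sources used here. The CD4+ cDC were primary spleen cells that carried CD11c, MHC class II and CD4 and lacked CD8, purified with magnetic beads alone. The neutrophils were primary marrow cells with CD11b and high Ly6G, sorted by flow cytometry alone. The CD4+ cDC were hybridised to the smaller of 2 array designs on a slide of their own, and the neutrophils to the larger design on a slide shared with CD8+ cDC, so design, slide, tissue and purification cannot be told apart from cell type. Levels are log2 of the intensities deposited by the authors, 2 values per group are given as replicate 1 and replicate 2, and a difference is the CD4+ cDC mean minus the neutrophil mean on that scale. The arrays are numbered by experiment in their titles, and nothing else says that the 2 of a group came from separate animals. The p-values therefore measure the spread between arrays of a group, pooled over all 14 arrays, and this spread may be technical.

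Classical dendritic cells take up antigen, cut it into peptides, load these on MHC class II molecules and present them to T cells. The CD4+ kind of the mouse spleen belongs to the cDC2 lineage, which is known for the factors IRF4 and RELB and for Notch2 signalling, and the CD8+ kind to the cDC1 lineage, which is known for IRF8 and BATF3. Neutrophils are short-lived phagocytes that mature in the marrow under C/EBP factors. They fill primary, secondary and tertiary granules with antimicrobial proteins one after the other as they mature, follow chemoattractants to sites of infection and make superoxide with the phagocyte NADPH oxidase.

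The genes of the sorting markers check the labels and are no findings. Itgax, which encodes CD11c, stood at 16.31 and 16.42 in CD4+ cDC and 11.66 and 11.68 in neutrophils. The class II gene H2-Ab1 stood at 17.29 and 17.50 against 10.03 and 10.04. Cd8a was at 4.72 and 4.90 in CD4+ cDC, was not well above background in neutrophils, and averaged 13.06 in CD8+ cDC. Cd4 had a pair of probes that gave unequal sizes: the brighter read 12.78 and 13.31 against 11.82 and 11.63, and the dimmer read 9.05 and 9.06 against 5.38 and 4.85, where the neutrophil values were not well above background. In CD8+ cDC the brighter averaged 11.41 and the dimmer 4.96. Itgam, which encodes CD11b, was higher in neutrophils on all 3 of its probes, with differences of -2.95 to -5.01, yet its brightest probe still read 12.95 and 13.38 in CD4+ cDC. That probe averaged 13.05 in CD8+ cDC, and the other probes read 9.85 and 9.91, and 5.71 and 6.16, in CD4+ cDC. Ly6g had no probe with a single gene name and was not used here. Both groups therefore carried the sorting genes in the labelled direction, and the CD4+ cDC arrays also carried Itgam, at a level that rests on the choice of probe.

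Promoters of genes that moved together are printed here because the class II genes of the mouse lie side by side and are known to be switched on through shared promoter boxes. The sequences are RefSeq windows of the GRCm38.p6 assembly, from 250 bases before to 50 after the annotated start, on the gene's strand. Of the 15 class II presentation genes listed, 12 had a window, and 4 of these held the letters CTGATTGG on either strand, the Y box that the factor NF-Y binds. Among all 32851 windows, 4.1% held these letters. They are in capitals below, and their first base lay 51, 62, 103 and 46 bases before the start of H2-Aa, H2-Eb1, H2-Eb2 and H2-Oa.
H2-Aa (chr17:34287774-34288073, minus strand): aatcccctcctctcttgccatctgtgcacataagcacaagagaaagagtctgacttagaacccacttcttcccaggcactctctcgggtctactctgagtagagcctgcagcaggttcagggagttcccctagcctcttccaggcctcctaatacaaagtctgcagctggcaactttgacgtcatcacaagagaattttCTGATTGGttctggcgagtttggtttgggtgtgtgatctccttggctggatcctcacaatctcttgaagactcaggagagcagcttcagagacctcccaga
H2-Eb1 (chr17:34305617-34305916, plus strand): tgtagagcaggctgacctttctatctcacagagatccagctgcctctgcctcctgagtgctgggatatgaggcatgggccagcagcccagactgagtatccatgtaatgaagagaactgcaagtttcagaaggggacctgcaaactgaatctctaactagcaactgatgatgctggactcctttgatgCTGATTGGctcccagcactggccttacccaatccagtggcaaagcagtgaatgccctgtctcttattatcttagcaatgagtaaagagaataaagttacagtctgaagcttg
H2-Eb2 (chr17:34325425-34325724, plus strand): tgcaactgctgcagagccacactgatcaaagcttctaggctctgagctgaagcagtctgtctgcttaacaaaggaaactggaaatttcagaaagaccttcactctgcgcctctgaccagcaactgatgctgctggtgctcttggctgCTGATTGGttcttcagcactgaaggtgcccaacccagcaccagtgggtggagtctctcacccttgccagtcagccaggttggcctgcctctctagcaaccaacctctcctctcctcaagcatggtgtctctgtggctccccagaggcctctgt
H2-Oa (chr17:34092129-34092428, plus strand): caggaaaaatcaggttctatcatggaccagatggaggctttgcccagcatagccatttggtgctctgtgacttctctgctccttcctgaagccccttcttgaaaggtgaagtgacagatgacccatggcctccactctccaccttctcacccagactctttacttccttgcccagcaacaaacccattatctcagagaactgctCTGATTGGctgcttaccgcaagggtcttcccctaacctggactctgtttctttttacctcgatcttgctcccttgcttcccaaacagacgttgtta
For the neutrophil side, the letters TTNNGNAA, where N is any base, were searched as a loose form of the C/EBP site. They stood on either strand of 40.7% of all windows, in 10 of 14 genes with a window from the secondary and tertiary granule list and in 5 of 12 class II genes. In no window of the listed class II and granule genes did such a match overlap a Y box. A granule gene on each of the next lines shows the matches in capitals.
Mmp8 (chr9:7558179-7558478, plus strand): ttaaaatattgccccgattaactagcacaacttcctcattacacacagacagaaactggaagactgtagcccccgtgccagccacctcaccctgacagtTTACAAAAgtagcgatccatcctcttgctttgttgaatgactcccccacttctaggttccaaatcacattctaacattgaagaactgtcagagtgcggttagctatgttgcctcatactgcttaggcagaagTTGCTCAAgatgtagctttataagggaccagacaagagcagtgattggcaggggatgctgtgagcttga
Ngp (chr9:110419558-110419857, plus strand): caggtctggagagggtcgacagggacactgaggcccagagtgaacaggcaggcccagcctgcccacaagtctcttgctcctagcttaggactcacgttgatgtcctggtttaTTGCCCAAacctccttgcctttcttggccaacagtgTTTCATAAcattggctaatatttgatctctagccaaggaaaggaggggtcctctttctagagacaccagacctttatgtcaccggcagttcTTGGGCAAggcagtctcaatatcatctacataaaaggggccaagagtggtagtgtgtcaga
These matches are descriptions of letters in the windows, and the arrays measured no binding.

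A gene was tested where it was well above background, by the scanner's flag, on both arrays of at least 1 group, which held for 13571 of 20269 named genes. The test was limma's moderated test over all 14 arrays with 1 shared spread per gene, adjusted by Benjamini-Hochberg, and calls needed both an adjusted p under 0.05 and a difference of at least 1, that is, 2-fold. By this rule 4972 genes were higher in CD4+ cDC (36.6%) and 3841 were higher in neutrophils (28.3%), so 64.9% of all genes tested were called. At least 8-fold differences numbered 1907 (14.1%) and 1017 (7.49%). The adjusted p alone was under 0.05 for 88.1% of genes, and the arrays of the groups did not overlap for 93.8%, so non-overlap alone marks nothing out. The median difference over all genes was 0.24 with quartiles of -1.27 and 1.89, while the median SD between replicates was 0.0941 in CD4+ cDC and 0.0538 in neutrophils. Gene group counts are read against these shares.

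The plot of gene levels shows how far the extremes lay from the diagonal. Signal was stronger on the CD4+ cDC arrays: 61.4% and 59.7% of shared probes were well above background there, against 49.8% and 47.2% on the neutrophil arrays. Of the genes tested, 2493 (18.4%) were above background in CD4+ cDC alone and 293 (2.16%) in neutrophils alone. The lowest level that counted as well above background was 4.08 and 4.27 on the CD4+ cDC arrays and 5.29 and 5.63 on the neutrophil arrays, so a dim gene had less chance of being detected in neutrophils. For a gene measured in 1 group alone, the fold is given as a lower bound, taken against the higher of that lowest level and the gene's own value.

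**Figure D1:**
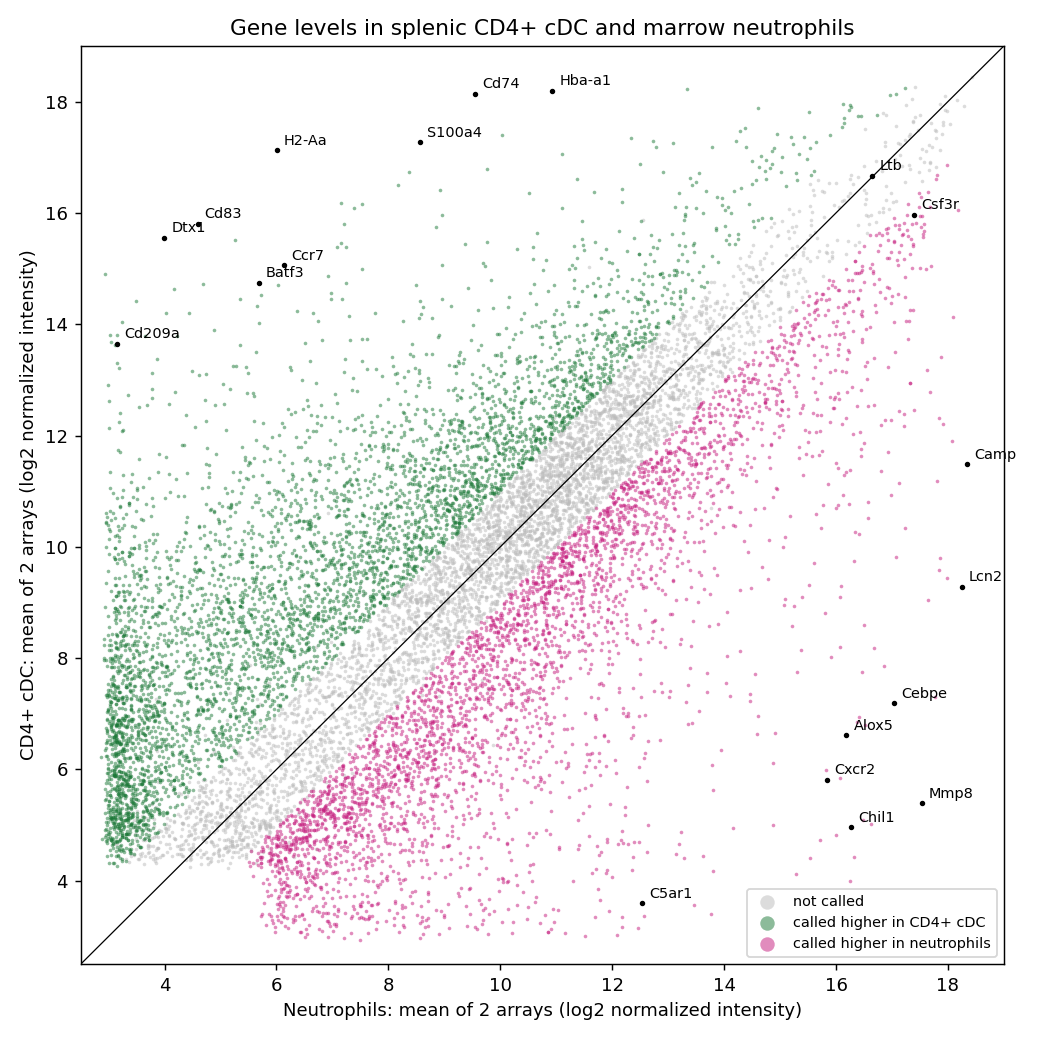
Mean log2 normalized intensity of 13571 genes in neutrophils (x axis) and CD4+ cDC (y axis), 2 arrays each; colours mark genes called at an adjusted p under 0.05 and 2-fold, and the line marks equal levels. H2-Aa, Cd74 and S100a4 lie far above the line, and Mmp8, Chil1 and Cebpe far below it.

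Among genes measured on all 4 arrays, the 15 largest differences toward CD4+ cDC were led by antigen presentation and dendritic cell genes. H2-Aa, the class II alpha chain and a sorting-marker gene, read 17.04 and 17.22 in CD4+ cDC and 5.87 and 6.14 in neutrophils. Its difference of 11.13 (SE 0.191) is 2238-fold, a description of a gene for which the CD4+ cDC were selected. Batf3, a transcription factor required for cDC1, read 14.82 and 14.67 against 5.58 and 5.79, a 535-fold difference (adjusted p 5.04e-12). The CD8+ cDC mean of Batf3 was 14.49, next to 14.74 in CD4+ cDC. Ccr7, the receptor that guides dendritic cells toward lymph nodes and T cell zones, read 15.16 and 14.95 against 5.92 and 6.37, which is 482-fold. H2-Aa, Batf3 and Ccr7 sat close to the detection limit of the neutrophil arrays (5.29 and 5.63), so their folds also carry that limit. Ccl5, a chemokine that draws T cells, read 16.78 and 16.69 against 8.32 and 8.40, which is 331-fold.

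Further genes of this set included enzymes, transporters and a calcium-binding protein. S100a4, a calcium-binding protein of migrating cells, read 17.26 and 17.28 in CD4+ cDC, 8.46 and 8.68 in neutrophils and 12.18 in CD8+ cDC. It stood 417-fold over neutrophils (adjusted p 2.39e-09), the opposite direction to most of its family. Il4i1, a secreted amino acid oxidase, read 16.19 and 16.11 against 7.55 and 7.49. Pld4, an endolysosomal exonuclease, read 14.78 and 14.64 against 5.89 and 6.17. Slc46a3, a lysosomal transporter, and Tmem176b, a membrane protein of the endosomal system, were 319-fold and 389-fold higher. Ly86, the secreted partner of the Toll-like protein CD180, was 282-fold higher. Jchain, which joins immunoglobulin chains and is a plasma cell gene, read 15.67 and 15.24 against 7.01 and 7.28 and averaged 12.35 in CD8+ cDC. Avpi1 read 16.09 and 16.10 in CD4+ cDC, while its neutrophil arrays differed from each other at 6.19 and 8.58. H2-Oa, Cd74 and H2-DMa complete the 15 and are described with their pathway. In the plot of the 15 largest differences each way, only Avpi1 has neutrophil arrays clearly apart.

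**Figure D2:**
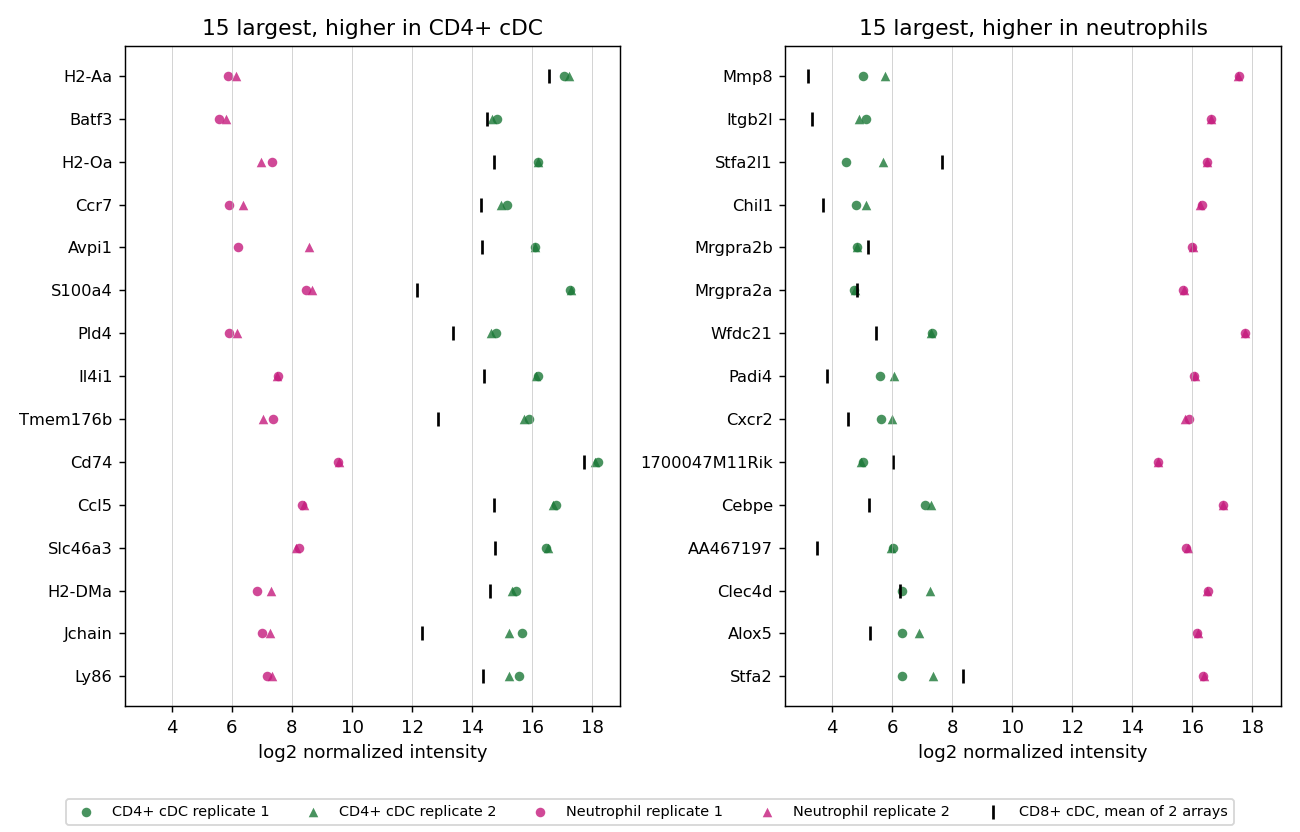
Log2 normalized intensity on each of the 4 arrays, with the CD8+ cDC mean as a black tick, for the 15 genes with the largest difference in each direction among those measured on all 4 arrays. The groups do not overlap for any of the 30 genes, and the CD8+ cDC tick of most genes lies with CD4+ cDC, with S100a4 the farthest below it on the left.

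The genes measured in CD4+ cDC and in neither neutrophil array add regulators of maturation and of Notch signalling. Cd83, which marks mature dendritic cells and keeps class II and CD86 on their surface, read 15.73 and 15.88 against 4.49 and 4.68 and was at least 1301-fold higher (adjusted p 2.5e-10). Dtx1, a ubiquitin ligase induced by Notch, read 15.47 and 15.63 and was at least 1090.2-fold higher, and its CD8+ cDC mean was 7.31. Dtx1 was thus high in the spleen cDC purified for CD4 and low in those that carried CD8. Anpep, an aminopeptidase of myeloid surfaces, read 14.96 and 14.84 against 2.94 and 2.93, at least 695-fold. Asb2, an adaptor of a ubiquitin ligase, was at least 576-fold higher, Ube2e2, a ubiquitin-conjugating enzyme, at least 494-fold and Cyp4f16, a cytochrome, at least 616-fold. The last of the 8 were Tmem51 (at least 488-fold) and Tbc1d4, a GTPase-activating protein of glucose transporter traffic (at least 427-fold).

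Toward neutrophils, the 15 largest differences included those of granule proteins, a chemokine receptor and a lipoxygenase. Mmp8, the neutrophil collagenase, read 5.03 and 5.75 in CD4+ cDC and 17.55 and 17.52 in neutrophils, 4522-fold higher there (SE of the log2 difference 0.62, adjusted p 6.69e-08). Itgb2l, an integrin beta-like chain of mouse granulocytes, read 5.13 and 4.91 against 16.62 and 16.62, which is 3103-fold. Chil1, a chitinase-like granule protein, was 2541-fold higher at 16.31 and 16.24. These genes sat close to the detection limit in CD4+ cDC, so their folds also carry that limit. Padi4, the arginine deiminase that acts on histones when neutrophils release chromatin, read 5.61 and 6.08 against 16.06 and 16.10. Cebpe, the C/EBP factor of secondary granule genes, read 7.08 and 7.31 against 17.04 and 17.04, which is 918-fold (adjusted p 3.52e-11). Cxcr2, the receptor for neutrophil-attracting chemokines, read 5.62 and 6.00 against 15.90 and 15.77, and Alox5, the first enzyme of leukotriene synthesis, 6.32 and 6.91 against 16.17 and 16.20.

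Several of the 15 belong to families of near-identical copies, so that a probe may read more than 1 of them. The cystatin-like genes Stfa2l1 and Stfa2 were 2686-fold and 736-fold higher in neutrophils. The G protein-coupled receptors Mrgpra2b and Mrgpra2a were 2304-fold and 2020.5-fold higher. The remaining members were Wfdc21, a whey acidic protein-type gene at 7.32 and 7.29 against 17.77 and 17.76, the lectin gene Clec4d, 1700047M11Rik and AA467197.

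Genes measured in neutrophils and on neither CD4+ cDC array included secreted and receptor genes of inflammation. Ankrd22 read 13.82 and 13.70 in neutrophils and was at least 767-fold higher, with an SE of 1.31 that comes mainly from the spread of the other groups in the fit. C5ar1, the receptor for the complement fragment C5a, read 4.07 and 3.11 against 12.55 and 12.51, at least 327-fold. Il1f9, an IL-1 family cytokine, read 12.42 and 12.51 and was at least 313-fold higher. Inhba, a chain of activin A, was at least 337-fold and Ceacam10, a secreted adhesion-family protein, at least 622-fold higher. Prok2, a small chemoattractant peptide of neutrophils, was at least 257-fold higher. Celsr3, a cadherin-like receptor, and Amer2, a regulator of Wnt signalling, were at least 284-fold and 255-fold higher. None of these 8 was well above background on a pre-cDC or CD8+ cDC array.

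Of 15 genes of class II presentation, 14 were higher in CD4+ cDC, 0 in neutrophils and 1 was not called, with a median difference of 7.03 against 0.24 over all genes. Marchf1, a ubiquitin ligase that takes class II off the surface, was called at 1.07 on its brighter probe and the opposite way, at -1.98, on its other, so its place among the 14 rests on the choice of probe. H2-Aa, H2-Ab1 and H2-Eb1 encode peptide-receiving class II chains, and class II was a sorting marker. Outside these chains, Cd74, the invariant chain that escorts class II through the cell, read 18.19 and 18.10 against 9.54 and 9.56, 386-fold. H2-Oa, a chain of the H2-O modulator of peptide exchange, read 16.19 and 16.18 against 7.33 and 6.98, which is 522-fold (adjusted p 7.87e-12). H2-DMa, a chain of the H2-M peptide editor, was 318-fold higher. H2-Eb2 read 13.81 and 13.80 and was not well above background in neutrophils, at least 326-fold. The 4 genes whose class II promoters are printed above thus span class II chains and a chain of the H2-O modulator, at differences of 7.03 to 11.13. The lysosomal protease Ctss and the thiol reductase Ifi30, which prepare antigen, read 16.11 and 16.07 against 11.12 and 11.09 and 16.04 and 15.89 against 8.93 and 8.98. Ciita, the master coactivator of class II genes, was the member without a call: it read 6.75 and 8.25 against 5.82 and 7.61 (difference 0.79, adjusted p 0.236) and averaged 12.52 in CD8+ cDC. The 2 arrays of each group lay far apart for Ciita, and the groups overlapped.

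Costimulation and maturation genes followed: of 12 tested, 10 were higher in CD4+ cDC and 1 in neutrophils, with a median of 4.25. Cd40, the receptor through which T cells license dendritic cells, read 11.66 and 11.70 against 4.09 and 3.72 and was at least 74.3-fold higher. Fscn1, the actin bundler of dendrites, was at least 52-fold and Icam1, an adhesion ligand of T cell integrins, at least 49-fold higher. Cd86, a ligand of CD28, read 12.08 and 12.08 against 9.18 and 9.32, and 14.004 in CD8+ cDC. Cd80, the other ligand of CD28, ran the opposite way on its brighter probe, at 12.40 and 12.62 against 14.77 and 14.71 (difference -2.23). Its second probe gave a difference of 0.85, and the mean of both gave -0.69, under the 2-fold rule, so the direction of Cd80 rests on the choice of probe.

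The plot of differences by gene list orders 38 lists by their median, from secondary and tertiary granules at -7.85 to class II presentation at 7.03. Dendritic cell core genes counted 17 of 18 higher in CD4+ cDC and 1 higher in neutrophils, with a median of 6.57, or 5.54 with lower bounds for the 6 members above background in CD4+ cDC alone. Flt3, the receptor of the cytokine on which dendritic cells depend, read 14.50 and 14.56 against 5.36 and 6.07, 451-fold. It was well above background on only 1 neutrophil array, so this fold carries the detection limit. Dpp4, a surface peptidase, read 12.58 and 12.69 and was at least 145-fold higher. Zbtb46, the transcription factor that marks classical dendritic cells, read 9.96 and 10.11 against 6.47 and 6.75, 10.69-fold. Adam19, a surface protease, ran the other way at 12.501 and 12.71 against 13.58 and 13.68, a difference of -1.02 that was -0.91 without CD4+ cDC replicate 1 and -0.97 without neutrophil replicate 2, under the 2-fold rule. The median level of the list was 12.53 and 12.72 on the CD4+ cDC arrays, 12.6 over the CD8+ cDC means, and 6.01 and 6.22 on the neutrophil arrays. The CD8+ cDC had the neutrophils' slide and design in common, had the spleen in common with the CD4+ cDC, and were purified with both beads and flow sorting.

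**Figure D3:**
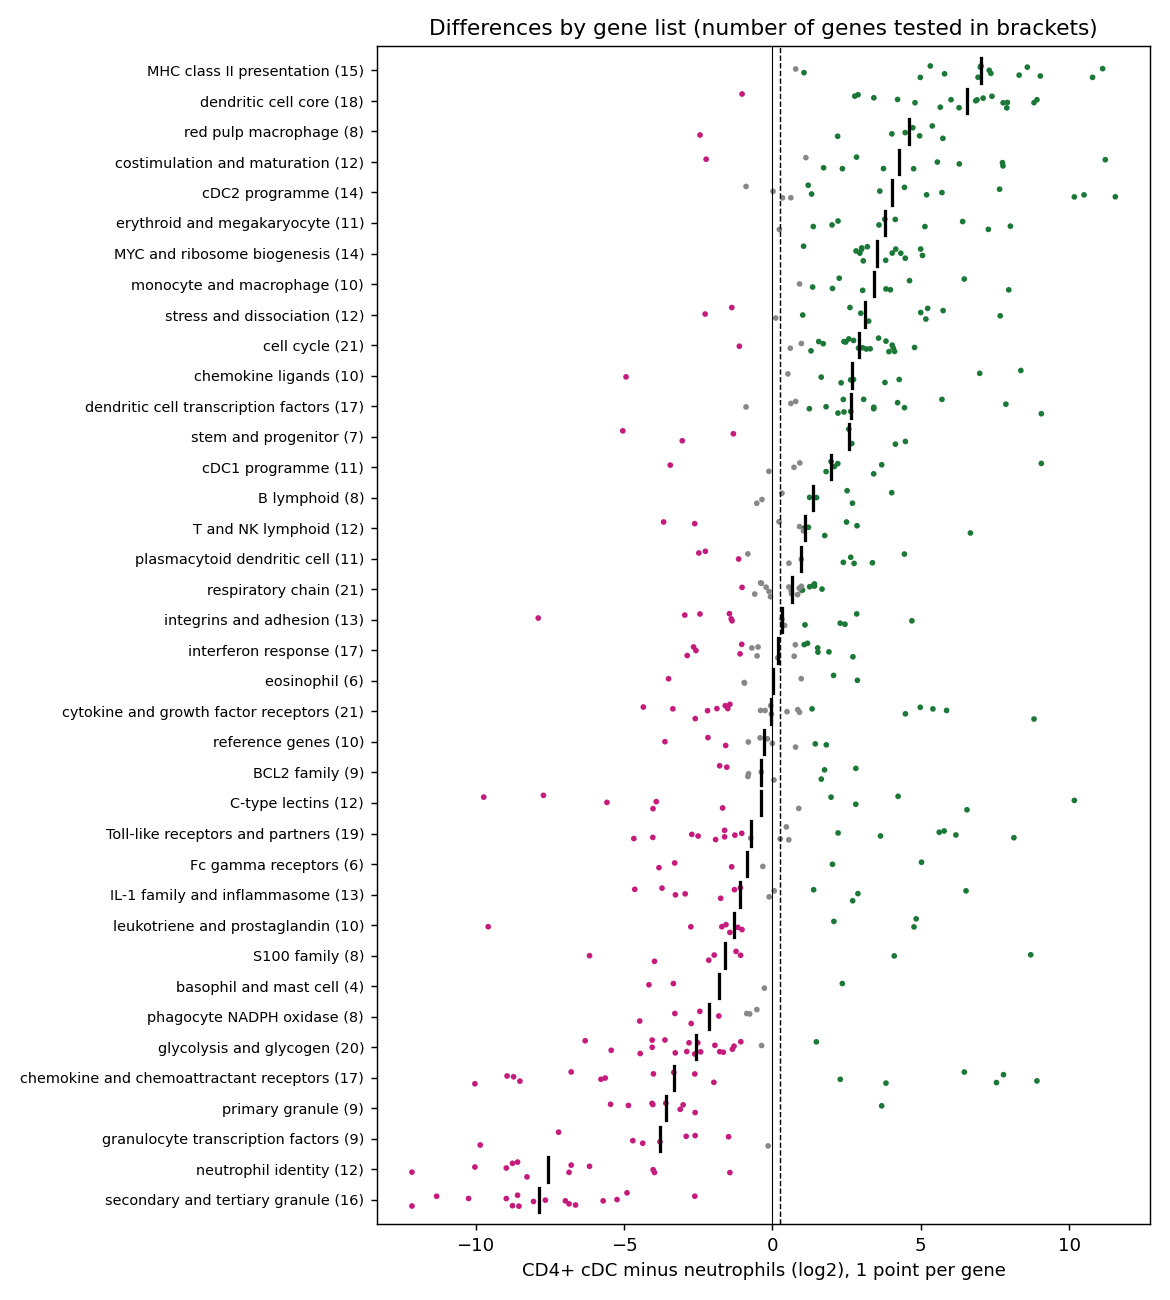
Difference in level (CD4+ cDC minus neutrophils, log2) of each tested member of 38 gene lists, with the list median as a black bar, 0 as a solid line and the median of all genes (0.24) as a dashed line; green and magenta mark genes called higher in CD4+ cDC and in neutrophils, grey no call. Granule lists lie to the left, class II presentation and dendritic cell core to the right, and the interferon response spans 0.

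Genes of the cDC2 programme were higher in CD4+ cDC for 10 of 14 members and in neutrophils for 0, with a median of 4.04. The 10 include the sorting-marker gene Cd4, for which the CD4+ cDC were selected. Cd209a, a lectin of the DC-SIGN family, read 13.67 and 13.62 against 3.13 and 3.16 and was at least 292-fold higher. Clec4a4, the lectin DCIR2 of this spleen subset, read 14.26 and 14.13 against 4.76 and 3.29, at least 426-fold. Esam, an adhesion molecule of Notch2-dependent cDC2, was at least 35.4-fold higher. On the CD8+ cDC arrays these read on average 8.65, 6.39 and 8.03, below the CD4+ cDC in each case. Relb, a subunit of NF-kappaB, read 15.57 and 15.39 against 9.78 and 9.75, 52.5-fold (adjusted p 2.27e-10). Irf4 read 12.10 and 12.21 in CD4+ cDC, but its neutrophil arrays stood apart at 10.01 and 5.40, and the call (adjusted p 0.00431) was lost in a fit of only the 4 arrays (adjusted p 0.0803). The 4 members without a call were Ltb, Sirpa, Rbpj and Notch2. Ltb, a ligand of lymphotoxin receptors, read 16.71 and 16.62 against 16.66 and 16.63 and 12.80 in CD8+ cDC, and Sirpa, a surface receptor of myeloid cells, 14.78 and 14.84 against 14.43 and 14.51 and 8.94. For Ltb and Sirpa, neutrophils read close to CD4+ cDC while CD8+ cDC read lower. Rbpj, the DNA-binding partner of Notch, and the receptor Notch2 averaged 11.40 and 12.57 in CD4+ cDC and slightly more in CD8+ cDC, at 11.77 and 12.94.

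The cDC1 programme was higher in CD4+ cDC for 7 of 11 members tested and in neutrophils for 1. Its members Xcr1, Tlr3 and Gcsam did not pass the background filter in either group and were not tested, and Itgae had no probe with a single gene name. Irf8, which drives cDC1 and is low in granulocytes, read 12.11 and 11.74 in CD4+ cDC, 8.48 and 8.55 in neutrophils, 16.59 in CD8+ cDC and 17.36 in pre-cDC. CD4+ cDC thus lay between neutrophils and the other dendritic groups, 10.66-fold over neutrophils (adjusted p 2.67e-09). Cadm1 was at least 2.76-fold higher than in neutrophils at 7.28 and 6.57, against 12.12 in CD8+ cDC. Clec9a, a receptor for dead cells on cDC1, read 8.46 and 8.96 against 6.85 and 6.62 and 14.76 in CD8+ cDC. Ly75, the endocytic receptor DEC-205, was the member higher in neutrophils, at 4.90 and 4.90 against 8.44 and 8.24. All but 1 of the 11 members read lower in CD4+ cDC than in CD8+ cDC, the exception being Batf3. These 11 include the sorting-marker gene Cd8a, whose direction was set by the purification. Over all genes tested, which were filtered on CD4+ cDC and neutrophils and not on CD8+ cDC, 57% read higher in CD4+ cDC than in CD8+ cDC.

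Dendritic cell transcription factors were higher in CD4+ cDC for 14 of 17 members and in neutrophils for 0, with a median of 2.64. Beside Batf3, Relb and Irf4, the corepressor gene Cbfa2t3 read 14.15 and 14.32 against 6.47 and 6.26, 234-fold. Granulocyte factors were the mirror image, with 8 of 9 higher in neutrophils, 0 in CD4+ cDC and a median of -3.79. Klf5 read 4.84 and 4.57 against 11.89 and 11.92 (147-fold), Cebpd 12.41 and 12.14 against 16.96 and 16.99 (26-fold) and Mxd1, an antagonist of MYC, 12.12 and 11.99 against 16.42 and 16.42 (20.6-fold). Cebpa, which starts the granulocyte programme in progenitors, was the member without a call, at 10.24 and 10.08 against 10.31 and 10.29 (difference -0.14, adjusted p 0.154).

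Every gene of the secondary and tertiary granule list, 16 of 16, was higher in neutrophils, with a median of -7.85. The list also holds Padi4, described above as acting on histones. Lcn2, the iron-withholding lipocalin, read 9.30 and 9.26 in CD4+ cDC and 18.24 and 18.24 in neutrophils, 499-fold (adjusted p 5.07e-13). Ltf, lactoferrin, read 9.45 and 9.42 against 17.998 and 17.96, and Camp, the cathelicidin, 11.43 and 11.54 against 18.33 and 18.33. Ngp, whose promoter is printed above with that of Mmp8, read 9.11 and 8.99 against 17.62 and 17.66. These genes were well above background in CD4+ cDC as well: the 16 summed to a log2 level of 15.53 and 15.43 there, and of 21.38 on both neutrophil arrays. The median of the 16 was 9.38 and 9.43 in CD4+ cDC and 17.58 and 17.59 in neutrophils, so the CD4+ cDC sum comes mostly from the brighter members. Of these, 13 of 16 (81.2%) read higher in CD4+ cDC than in CD8+ cDC, against 57% of all genes tested, and whether neutrophils among the bead-purified cells add to those levels was not tested.

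Primary granule genes differed less, with 8 of 9 higher in neutrophils, 1 in CD4+ cDC and a median of -3.59. Serpinb1a, an inhibitor of granule proteases, read 10.84 and 10.71 against 16.23 and 16.22, and Mpo, myeloperoxidase, 8.38 and 7.397 against 11.90 and 11.93. Fcnb, a ficolin, and Ms4a3 were 28.8-fold and 16.6-fold higher. Ctsc, the protease that activates granule proteases and also works in other lysosomes, was the exception at 12.28 and 11.94 against 8.36 and 8.50, 12.8-fold higher in CD4+ cDC. In the S100 family 6 of 8 genes were higher in neutrophils and 2 in CD4+ cDC. S100a8 and S100a9, which form calprotectin, read 11.68 and 12.13 against 18.06 and 18.06 and 13.91 and 14.34 against 18.10 and 18.10. S100a10, the annexin A2 partner, joined S100a4 on the other side at 10.96 and 10.86 against 6.75 and 6.86, 17.2-fold.

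The phagocyte NADPH oxidase was higher in neutrophils for 5 of 8 genes and in CD4+ cDC for 0, with a median of -2.12. The cytosolic subunit Ncf1 read 12.46 and 12.30 against 15.64 and 15.68, which is 9.75-fold. Cybb, the catalytic subunit, was 5.44-fold higher and Rac2, its GTPase, 6.65-fold. Its membrane partner Cyba read 16.98 and 16.98 against 17.50 and 17.51, a difference of -0.52 under the 2-fold rule. Subunits of one enzyme thus differed to unequal extents.

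Receptors for chemoattractants split, with 11 of 17 genes higher in neutrophils, 6 in CD4+ cDC and none without a call. The receptors for formyl peptides, Fpr2 and Fpr1, read 7.93 and 7.57 against 16.45 and 16.49 and 8.80 and 7.56 against 16.67 and 16.69, and with Cxcr2 and C5ar1 they lead the neutrophil side. On the side of CD4+ cDC, beside Ccr7, stood Ccr6, a receptor for CCL20, at 13.08 and 13.39 and at least 217-fold higher, and Gpr183, the oxysterol receptor that places cDC2 in the spleen, at 11.10 and 11.02 and at least 48.5-fold. Ccr6 averaged 6.70 and Gpr183 7.07 in CD8+ cDC. Cx3cr1, the fractalkine receptor, read 12.23 and 12.22 and was at least 88.5-fold higher. Chemokine ligands leaned to CD4+ cDC, with 8 of 10 higher there and 1 in neutrophils. After Ccl5 came Cxcl9, an interferon-induced ligand of CXCR3 (at least 26.3-fold), and Cxcl16 (19.3-fold), and Ccl6 was the ligand higher in neutrophils, at 12.43 and 12.48 against 17.38 and 17.40.

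Toll-like receptors and their partners were not uniform: 9 of 19 were higher in neutrophils, 6 in CD4+ cDC and 4 were not called. Tlr8 was at least 18.5-fold higher in neutrophils at 8.55 and 8.23, and Tirap, an adaptor of TLR2 and TLR4, was 16.3-fold higher. In CD4+ cDC, Tlr1, a partner of TLR2, read 12.24 and 12.46 against 6.84 and 6.61, and Tlr11 and Tlr12, receptors for profilin, were at least 16.1-fold and 25.5-fold higher. Both read higher still in CD8+ cDC, at 13.42 and 14.34. Unc93b1, which carries nucleic acid-sensing receptors to endosomes, was 4.64-fold higher in CD4+ cDC.

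C-type lectins separated the cell types member by member, with 6 of 12 higher in neutrophils and 5 in CD4+ cDC. Clec4d and Clec4e, receptors for mycobacterial glycolipids, read 6.33 and 7.26 against 16.54 and 16.50 and 5.77 and 6.38 against 13.75 and 13.83. Clec5a was at least 21.8-fold higher in neutrophils. Clec10a, a galactose-type lectin of dendritic cells, and Clec4a1 stood on the other side with Clec4a4, at least 19-fold and 18.8-fold higher in CD4+ cDC. Of 6 Fc gamma receptor genes, 3 were higher in neutrophils, led by Fcgr3 at 9.95 and 9.21 against 13.29 and 13.50 and Fcgr4 at 10.65 and 10.51 against 13.88 and 13.86, and 2 were higher in CD4+ cDC. Fcgrt, the neonatal Fc receptor, read 11.49 and 11.13 in CD4+ cDC with neutrophil arrays apart at 8.47 and 4.10, and its call was lost in the fit of 4 arrays (adjusted p 0.0529). Fcgr1, which read 7.03 and 6.19 and was at least 2.22-fold higher, lost its call without CD4+ cDC replicate 1 (adjusted p 0.0634).

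Within the IL-1 family and inflammasome genes, 7 of 13 were higher in neutrophils and 4 in CD4+ cDC. Nlrp12 and the receptor accessory chain Il1rap were at least 19-fold and 11.7-fold higher in neutrophils, and the receptor antagonist Il1rn was 9.61-fold higher. Nlrc4, the inflammasome platform for bacterial flagellin and secretion needles, was at least 22.9-fold higher in CD4+ cDC at 9.98 and 9.98. Il1b itself read 13.54 and 14.37 against 14.05 and 14.08 and was not called (adjusted p 0.641). Lipid mediator genes divided in the same way between 7 of 10 higher in neutrophils and 3 in CD4+ cDC. After Alox5, Ptgs1, the constitutive cyclooxygenase, read 10.47 and 8.86 against 12.39 and 12.43, whereas Ptgs2, the inducible one, read 10.24 and 10.38 and was at least 27.3-fold higher in CD4+ cDC. Hpgds, a prostaglandin D synthase, was at least 6.07-fold higher there.

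Genes of glycolysis, glycogen and the pentose phosphate branch were higher in neutrophils for 18 of 20 members, with 1 higher in CD4+ cDC and a median of -2.56. Hk3, a hexokinase of myeloid cells, read 9.20 and 8.69 against 15.12 and 15.39, 79.1-fold (adjusted p 5.11e-10). Pygl, which releases glucose from glycogen, read 13.19 and 13.16 against 17.64 and 17.61, 21.9-fold. Pgd, which makes NADPH in the pentose phosphate pathway, read 11.40 and 11.34 against 16.79 and 16.81, 43.1-fold, and Pfkfb4, a regulator of phosphofructokinase, was 16.6-fold higher. Pfkl, a phosphofructokinase subunit, was the single member on the other side, at 10.07 and 9.92 against 8.43 and 8.60. Nuclear genes of the respiratory chain differed little by comparison, with 14 of 21 not called, 6 higher in CD4+ cDC and 1 higher in neutrophils. Their largest difference was that of Cyc1, cytochrome c1, at 13.31 and 13.27 against 11.57 and 11.67 (3.19-fold), and their median of 0.65 became -0.0085 when arrays were scaled to the 75th percentile of shared probes. Calls of Cycs and Ndufv1 (differences 1.42 and 1.38) fell under 2-fold on that scale, at 0.61 for both, and on the scale of array medians, at 0.95 and 0.94. Ndufa1, the member higher in neutrophils at -1.02, was at -0.90 without CD4+ cDC replicate 2.

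**Figure D4:**
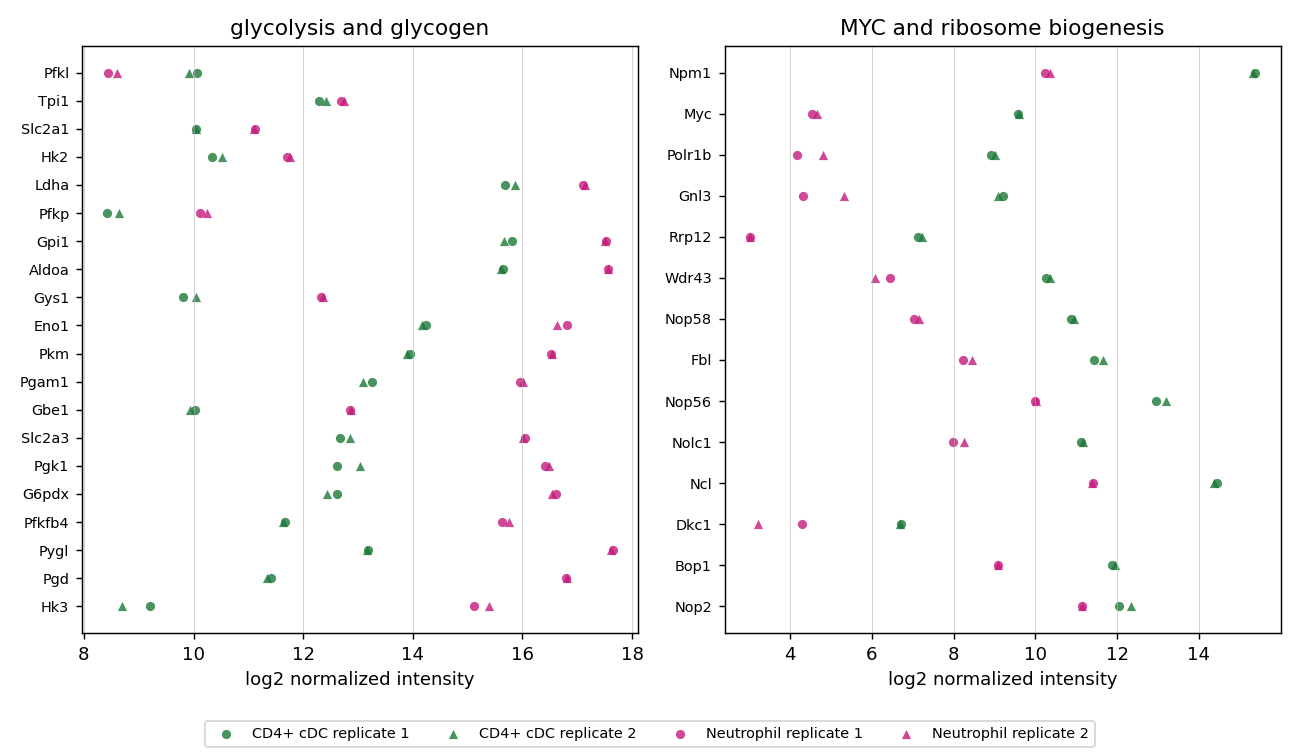
Log2 normalized intensity on each of the 4 arrays for the 20 genes of glycolysis and glycogen and the 14 genes of MYC and ribosome biogenesis, ordered by difference. Neutrophils lie to the right for all of the first list but Pfkl, and to the left for every gene of the second.

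Genes of ribosome biogenesis ran the other way as a group: 14 of 14 were higher in CD4+ cDC, with a median of 3.51, or 3.13 with bounds for the 5 members above background in CD4+ cDC alone. Myc read 9.57 and 9.61 against 4.52 and 4.66 and was at least 17.5-fold higher. Npm1, a nucleolar chaperone, read 15.38 and 15.33 against 10.24 and 10.35, 33.3-fold (adjusted p 1.51e-11). Polr1b, a subunit of RNA polymerase I, was at least 11.3-fold and Gnl3, a nucleolar GTPase, at least 12.9-fold higher. Cell cycle genes were higher in CD4+ cDC for 18 of 21 members, with a median of 2.90. The helicase subunits Mcm3, Mcm6 and Mcm2 read 12.83 and 13.05 against 8.08 and 8.22, 14.65 and 14.81 against 10.59 and 10.63 and 9.98 and 10.18 against 5.81 and 6.20. Rrm2, a subunit of ribonucleotide reductase, was 16.4-fold higher. Tyms, a thymidylate synthase, was the member higher in neutrophils, at 6.09 and 6.05 against 6.99 and 7.37, and its difference of -1.11 was -0.93 without neutrophil replicate 2.

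Markers of other blood cells were read on the same arrays, since bead purification can leave other cells in. Erythroid and megakaryocyte genes were higher on the CD4+ cDC arrays for 10 of 11 members and on the neutrophil arrays for 0, with a median of 3.79, or 3.07 with bounds. Hba-a1, an alpha globin, read 18.06 and 18.33 against 10.89 and 10.95 and averaged 15.58 in CD8+ cDC. Alas2, the erythroid enzyme that starts haem synthesis, read 13.12 and 13.37 and was at least 220.3-fold higher. Car2, a carbonic anhydrase, and Slc4a1, the red cell anion exchanger, read 12.38 and 11.21 against 5.74 and 5.03 and 12.80 and 11.73 against 7.09 and 7.16. The list summed to a log2 level of 18.19 and 18.42 in CD4+ cDC, mostly from Hba-a1, and of 11.47 and 11.55 in neutrophils. Replicate 1 minus replicate 2 of CD4+ cDC had a median of 1.08 over the 11 members and ran from -2.03 to 1.47. Klf1, Epor, Alas2, Gata1 and Itga2b were among the list's 6 members above background in CD4+ cDC alone.

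Red pulp macrophage genes were higher in CD4+ cDC for 7 of 8 members, with a median of 4.60, and they also set the replicates apart. C1qa, a chain of complement C1q, read 12.98 and 11.38 against 6.75 and 6.84, Vcam1, an adhesion molecule, 14.09 and 12.16 against 8.15 and 8.17, and Spic, the factor of red pulp macrophages, 12.95 and 12.14 against 6.94 and 6.66. All 8 members read higher on CD4+ cDC replicate 1 than on replicate 2, by 0.80 to 2.02 with a median of 1.58. Over all genes tested, the median of this signed difference was 0.0029, and the median of its absolute size was 0.133. Without replicate 1 the median of the list was 3.85 and without replicate 2 it was 5.36. Slc40a1, the iron exporter ferroportin, was the member higher in neutrophils, at 12.26 and 10.24 against 13.68 and 13.70. The list summed to 15.99 and 14.42 in CD4+ cDC and to 13.91 and 13.94 in neutrophils. In whole populations, more cells of a type and more RNA per cell cannot be told apart, and the part of other cells in the differences was not tested.

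**Figure D5:**
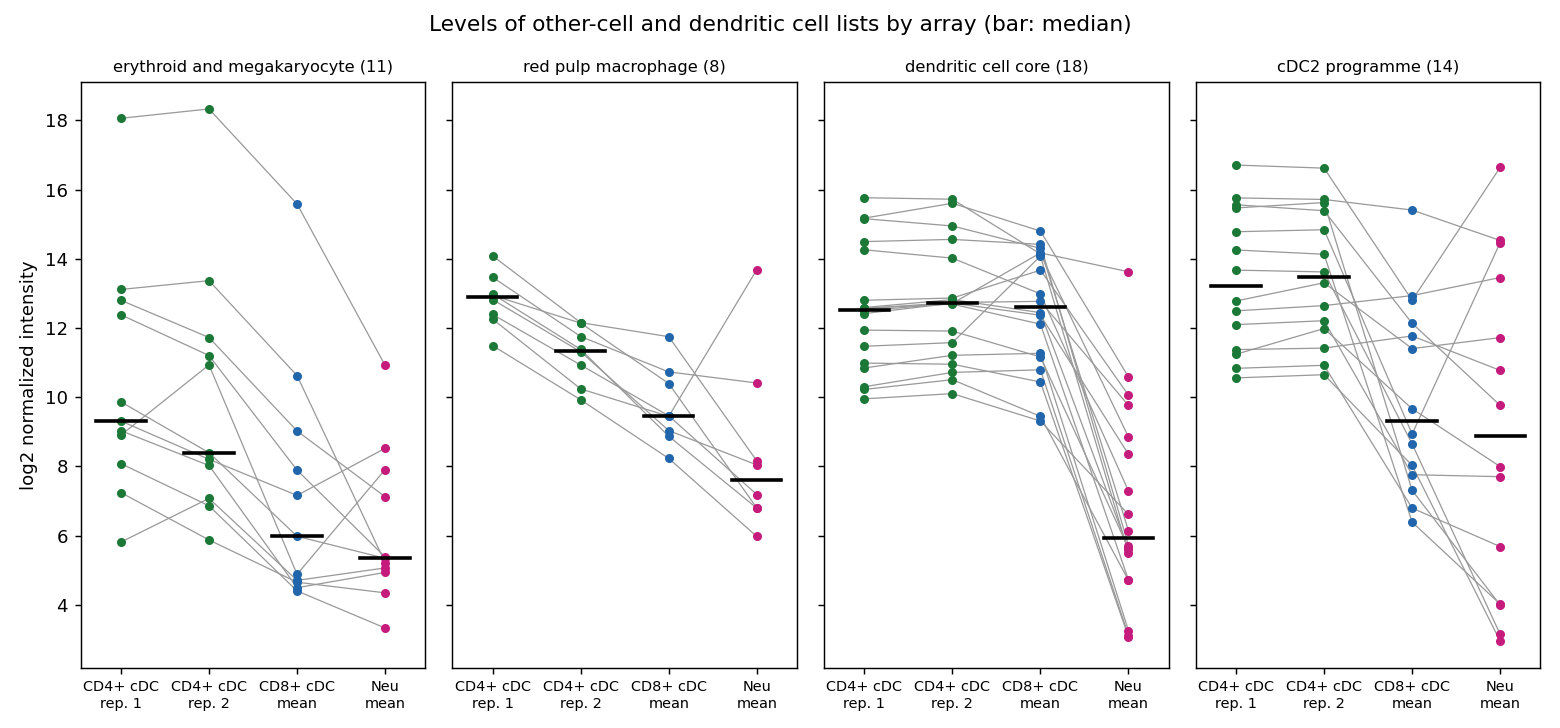
Log2 normalized intensity of erythroid, red pulp macrophage, dendritic cell core and cDC2 genes on each CD4+ cDC array and as means of 2 arrays for CD8+ cDC and neutrophils; each line is a gene and each bar a median. Red pulp macrophage genes read higher on CD4+ cDC replicate 1 than on replicate 2, while the medians of the dendritic cell core lie close together on the CD4+ and CD8+ arrays.

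Monocyte and macrophage genes were higher in CD4+ cDC for 9 of 10 members, led by Ms4a6c at 13.20 and 13.30 (at least 221-fold) and by Cx3cr1. Csf1r, the receptor of the macrophage growth factor, was the member without a call, at 16.22 and 15.94 against 15.15 and 15.17. Among plasmacytoid dendritic cell genes, 5 of 11 were higher in CD4+ cDC and 3 in neutrophils. The brighter probe of Siglech, a lectin of plasmacytoid cells, read 14.45 and 14.87 against 16.92 and 16.92, whereas its other probe gave a difference of 0.67, so its direction rests on the choice of probe. Runx2, at a difference of -1.14, was reversed to 1.06 in the mean of its probes and was -0.60 without CD4+ cDC replicate 1. Pacsin1, a membrane-shaping protein, was higher in neutrophils at 11.82 and 11.87 against 14.29 and 14.36, and its difference of -2.48 was -0.69 in the mean of its probes. Its other probe, dim and not well above background in neutrophils, was called the opposite way at 1.10, so its direction rests on the choice of probe as well.

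Lymphoid markers had median differences of 1.37 (B lymphoid) and 1.09 (T and NK lymphoid). Of 8 B lymphoid genes tested, 5 were higher in CD4+ cDC and 0 in neutrophils, with Cd79b at 12.74 and 12.85 against 10.10 and 10.09, whereas Cd79a was not called at 5.51 and 5.71 against 6.06 and 6.21. The B cell genes Pax5 and Ebf1 did not pass the background filter in either group and were not tested. Of 12 T and NK lymphoid genes, 6 were higher in CD4+ cDC and 2 in neutrophils. Cd5, a scavenger-type receptor of T cells, read 12.18 and 12.35 against 5.86 and 5.32, 102-fold, and was well above background on only 1 neutrophil array. The T cell receptor subunits Cd3d and Cd3e were the ones higher in neutrophils. Cd3d read 7.85 and 8.43 against 11.79 and 11.82, and Cd3e 7.73 and 8.43 against 10.71 and 10.69. Of 7 basophil and mast cell genes listed, Fcer1a, Ms4a2 and Cd200r3 did not pass the background filter in either group and were not tested. Among the 4 tested, Mcpt8, a basophil protease, was at least 11.6-fold higher in neutrophils at 7.68 and 7.75 and Prss34 10.1-fold. Gata2 was the 1 called higher in CD4+ cDC, by at least 1.09-fold, a call that was lost under normexp background correction. Siglecf, an eosinophil lectin, was 11.3-fold higher in neutrophils at 10.55 and 10.49, while the eosinophil granule gene Prg2 was 7.29-fold higher in CD4+ cDC at 10.10 and 9.75. The part of lymphocytes, basophils and eosinophils in these levels was not tested.

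Genes often used as references were compared too. Actb held the highest value of the deposited table on all 4 arrays, which the normalization sets equal, so its levels give no comparison. Other bright genes, such as Lcn2, S100a8, S100a9 and Cebpe, had the same value on both neutrophil arrays. Such a value is a shared rank in the sorted values common to the arrays, and it does not measure the spread between them. B2m, the light chain of MHC class I, read 16.36 and 16.37 against 16.51 and 16.55 and was not called. Gapdh and Pgk1, which are also glycolytic enzymes, were 2.97-fold and 12.3-fold higher in neutrophils, and Hprt and Ppia were 3.53-fold and 2.72-fold higher in CD4+ cDC. Over the 10 reference genes, 5 were not called, with a median difference of -0.29.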

How the data were processed

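Total RNA was taken with column kits, amplified and labelled with Cy3 by a low-input kit, per the labels' protocols, and the arrays were read with Agilent Feature Extraction 10.7.3.1, per the file headers. The scanner files hold spot intensities (processed, median and background signals), and the tables deposited by the authors hold linear intensities of 39429 probes, with 1 set of sorted values common to the 14 columns, as quantile normalization leaves. The steps behind them are not stated in the sources used here. Over single-spot probes, columns and processed signals ranked alike (Spearman 0.999999 to 1), which settles direction. The column values ran from 7.20 to 354032, a linear and not a log2 range. The deposited intensities were taken to log2. No spot was saturated.

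Probes were named by their accession in RefSeq's table of GRCm38.p6, used for names alone: 26747 had 1 symbol, 70 several and 12612 none. A gene took its brightest probe among those that passed the filter, and 154 of 3519 genes with several probes had probes called both ways. A probe counted as well above background if the scanner's flag held for a share of 0.5 or more of its spots. Tests used limma 3.58.1 in R 4.3.3 with data.table (1.17.8) (lmFit, contrast and eBayes over 7 group means, two-sided; 8.60 total degrees of freedom), tables Python 3.11.15 with pandas 2.3.3, and plots matplotlib 3.10.9. The fit was tested on simulated data. SE is the fit's standard error. With 2 arrays per group, the number of arrays limits precision. Signal strength is given as the 75th percentile of the processed signal over shared probes: 661 and 566 in CD4+ cDC, 296 and 270.5 in neutrophils. Replicates correlated across genes at r = 0.993 and 0.99, and genes are not independent replicates. The replicate numbers in the titles did not pair the samples (correlation of deviations 0.0036).

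Members and the 38 gene lists were chosen with earlier results of these data known. Of 466 listed genes, 458 were on the array under a single name and 439 were tested; Ly6g, Itgae, Ly6c2, Cd68, Hbb-b1, Clec7a, Mx1 and Hspa1b were not. Named genes are the 15 largest called differences each way among genes measured on all 4 arrays, the 8 largest lower-bound folds each way, up to 4 called members per list with the largest differences, members called against their list, and the sorting-marker genes with Irf8. Actb, B2m, Camp, Cd79a, Cd86, Cebpa, Ciita, Clec5a, Csf1r, Ctss, Cyba, Fos, Fpr1, Ifi30, Il1b, Ltb, Ltf, Marchf1, Ngp, Notch2, Rbpj, Sirpa, Tgfbr1, Tirap, Tlr8 and Zbtb46 were added after their values were seen, as were the motifs. Some genes that this rule names are not reported here. Alternatives were 3 other scalings of the processed signal, normexp background correction (offset 50) with quantile normalization, no filter or a filter on all 4 arrays, the mean of all probes, only the 4 arrays, a replicate block and each array left out. Normexp was planned on the mean signal, and the files used here gave the median signal, which was used in its place.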

Additional observations from a re-analysis of the deposited data

How the results depend on the processing

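More genes were higher in CD4+ cDC than in neutrophils under the alternatives run, except at the 75th percentile of shared probes and under the filter on all 4 arrays (2636 against 3355). The 4972 genes higher in CD4+ cDC became 2636, and the 1907 with at least 8-fold became 624, when genes had to be well above background on all 4 arrays, which tests fewer genes (10091). Normexp with quantile normalization, which lifts dim values by its offset, gave 751 and 520 genes at least 8-fold higher in CD4+ cDC and in neutrophils. Scaling to the 75th percentile of shared probes moved the median of all genes from 0.24 to -0.09 and gave 4367 and 4587 calls, and scaling to the 75th percentile over detected probes moved it to 0.51 and gave 5582 and 3408; differences are relative to these shifts. Leaving out each array in turn gave 4880 to 4985 genes higher in CD4+ cDC and 3790 to 3848 higher in neutrophils, with 1884 to 1934 and 1014 to 1032 at least 8-fold. A replicate block gave 4970, 3841, 1907 and 1017 genes and changed no call of a named gene. Of 209 named genes, 14 lost the call under normexp, among them Cd4 (0.51), Cr2 (0.77), Gata2 (0.50) and Tyms (-0.42), and Cd4 was at 0.68 at the 75th percentile of shared probes. Runx2 reversed to 1.06 in the mean of its probes. Of 494 comparisons of a list median with an alternative, 329 stayed within the spread of the replicates, 152 moved beyond it and 13 changed sign. Among 38 list medians, 26 moved under normexp and 23 at the 75th percentile of shared probes. The changes of sign are given next. The eosinophil median of 0.0168 became -0.0948 at the 75th percentile of shared probes, -0.0200 under normexp and -0.939 under the filter on all 4 arrays. The integrin median of 0.325 became -0.264 at the 75th percentile of shared probes and -0.259 with the mean of probes, and ranged from -0.0292 (without neutrophil replicate 2) to 0.421 with an array left out. The C-type lectin median of -0.393 became 0.889 under the filter on all 4 arrays. The cytokine receptor median of -0.0547 became 0.0215 at the 75th percentile over detected probes, and ranged from -0.177 to 0.0395 (without CD4+ cDC replicate 1). The respiratory chain median of 0.649 became -0.0085 at the 75th percentile of shared probes. The interferon median of 0.185 became -0.0689 at the 75th percentile of shared probes and -0.148 under the filter on all 4 arrays, and ranged from -0.0211 (without CD4+ cDC replicate 1) to 0.391. The causes were not tested.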

Other observations

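Stem and progenitor genes were split, with 4 of 7 higher in CD4+ cDC and 3 in neutrophils. Kit, the stem cell factor receptor, read 14.02 and 13.96 in CD4+ cDC and 9.47 and 9.55 in neutrophils, 22.4-fold, and Meis1 9.97 and 10.20 against 5.87 and 6.00, 17.7-fold. Ly6a, which encodes Sca-1, stood on the neutrophil side at 9.67 and 9.60 against 14.68 and 14.67, 32.9-fold, with Myb at 8.10 and 8.12 against 11.10 and 11.19. Interferon response genes had no common direction: 6 of 17 were higher in CD4+ cDC, 5 in neutrophils and 6 were not called. The membrane restriction factors Ifitm1, Ifitm6 and Ifitm2 were 7.31-fold, 6.29-fold and 5.95-fold higher in neutrophils, and Ifit2 was 6.56-fold higher in CD4+ cDC. Rsad2, an antiviral enzyme, at a difference of -1.09, was at -0.997 without CD4+ cDC replicate 1, under the 2-fold rule.

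Cytokine receptors were higher in neutrophils for 8 of 21 members and in CD4+ cDC for 6. Tgfbr1, a TGF-beta receptor chain, read 6.18 and 6.86 against 10.87 and 10.86, 20.3-fold, while Il10ra, a chain of the IL-10 receptor, read 15.18 and 15.03 against 9.60 and 9.79, and Il21r was at least 52.6-fold higher in CD4+ cDC. Of 13 integrin and adhesion genes, which include the sorting-marker genes Itgam and Itgax, 6 were higher in neutrophils and 5 in CD4+ cDC. Itga4 and Itgb1, which pair as VLA-4, were 7.17-fold and 5.45-fold higher in CD4+ cDC. Itgb5, at a difference of 1.10, was at 0.54 without CD4+ cDC replicate 1. Among BCL2 family genes the survival gene Bcl2 was 7.03-fold higher in CD4+ cDC and Bcl2l1 3.43-fold higher in neutrophils, and 4 of 9 were not called. Of 12 immediate early and stress genes, which sorting and tissue digestion can raise, 9 were higher in CD4+ cDC and 2 in neutrophils. Egr1 read 12.77 and 12.92 and was at least 149-fold higher, Nr4a1 16.42 and 16.80 against 11.37 and 11.39, and Fos 12.99 and 13.24 against 8.08 and 8.15. Zfp36 and Jund were 4.8-fold and 2.58-fold higher in neutrophils, and the part of cell handling in these levels was not tested.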
